A study of Mus musculus with 6 samples.

Results

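The genes that build, sulfate and turn over glycosaminoglycans were examined in primary chondrocytes (cartilage cells) of neonatal A2ARKO and WT mice. The 43 members were taken by gene symbol from the 47480 genes of the deposited table, and all 43 were found. They comprise the UDP-glucuronate enzyme, hyaluronan synthases, hyaluronidases and the hyaluronan receptor Cd44, the enzymes of the linkage region, of the chondroitin and heparan chains and of their sulfation, the supply of sulfate and nucleotide sugars, and the extracellular sulfatases. A2ARKO mice carry a global deletion of the adenosine A2A receptor on a C57BL/6 background, and WT mice are C57BL/6. There were 3 libraries of each genotype, each made from the trypsinized cells of 1 pooled litter, so the spread behind each p-value is that of litters. Both genotypes were bred in the same facility. No source used here gives the deleted segment of Adora2a, the driver of its deletion or the cells' time in culture. The comparison was made to characterize drivers of osteoarthritis, in which cartilage is lost.

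Glycosaminoglycans are long sugar chains. Chondroitin, dermatan and heparan sulfate are made in the Golgi on a short linkage sugar attached to a core protein, and are then sulfated from the donor PAPS. Hyaluronan is made without a core protein at the cell surface and is not sulfated. In cartilage, chondroitin sulfate chains on aggrecan hold water, aggregates are bound to hyaluronan, and heparan sulfate binds growth factors. The A2A receptor signals mainly through cyclic AMP.

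Values are FPKM, fragments per kilobase of gene scaled to the size of the library, so that levels of different genes can be set side by side. Differences are the A2ARKO mean less the WT mean of log2(FPKM + 1), with a standard error (SE), a scale that understates the change of low genes. A gene was called at a limma adjusted p below 0.05 over 11595 tested genes, those with 1 FPKM or more in at least 3 libraries. Depth was estimated at 41.6 to 58.1 M reads a library from the steps between low values. Adora2a had 0.41, 0.54 and 0.66 FPKM in A2ARKO replicates 1, 2 and 3, against 9.36, 7.31 and 3.46 FPKM in WT replicates 1, 2 and 3 (log2 difference -2.25, adjusted p = 0.0203 by limma, and 0.0582 to 0.0955 without any of the A2ARKO libraries or without WT replicate 2). Throughout, values by library follow the order of replicates 1, 2 and 3.

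The litters differed in RNA of cartilage markers. The 13 chondrocyte markers summed to 2344, 4739 and 6658 FPKM in A2ARKO libraries, against 27062, 1380 and 499 FPKM in WT libraries. Acan, the aggrecan core protein gene, read 41.0, 114 and 177 FPKM in A2ARKO, against 878, 11.6 and 3.55 FPKM in WT. WT replicate 1 lay above every A2ARKO library in 13 of the 13 markers, and WT replicates 2 and 3 lay below every A2ARKO library in 12 of them, the exception being Col11a1. The 13 markers of macrophages and other leukocytes summed to 54.2, 30.6 and 26.7 FPKM in A2ARKO, against 188, 1957 and 137 FPKM in WT, and C1qa was at 0 in A2ARKO replicate 3. The 9 skeletal muscle markers summed to 33.2, 11.04 and 16.1 FPKM in A2ARKO, against 8.30, 1315 and 21.8 FPKM in WT, and the 9 fibroblast markers to 4876, 3432 and 3790 FPKM, against 9397, 7781 and 6769 FPKM. The 5 osteoblast markers summed to 70.3, 39.6 and 48.2 FPKM in A2ARKO, against 503.5, 20.6 and 9.71 FPKM in WT, the 4 adipocyte markers to 99.1, 38.6 and 70.8 FPKM, against 29.3, 32.1 and 36.6 FPKM, and the 5 endothelial markers stayed below 4 FPKM in every library. In such bulk samples, fewer cells of a type and less RNA per cell cannot be told apart. Limma, the linear-model test used throughout, called 0 of 13 chondrocyte markers (0 at an unadjusted p below 0.05) and 0 of 12 tested leukocyte markers (9 lower at an unadjusted p below 0.05). It called 1 of 9 fibroblast markers, Dpt, lower (adjusted p = 0.0354), with 6 at an unadjusted p below 0.05, 5 lower and 1 higher. Of 4 adipocyte markers 0 were called, with 2 higher at an unadjusted p below 0.05. The sums of the leukocyte and fibroblast markers, lower in A2ARKO, and of the adipocyte markers, higher in A2ARKO, did not overlap between the genotypes. Those of the other lists overlapped. Such sums rest mostly on the most abundant genes, as on Lyz2, at 1434 FPKM in WT replicate 2. Of the 9 fibroblast markers, 5 had a log2 difference below 0, among them the abundant Col1a1, and 4 above 0. Of these 4, Dcn read 376, 660 and 1053 FPKM in A2ARKO, against 387, 340 and 180 FPKM in WT. The part of cell makeup in the results that follow was not tested.

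Of the 43 members, 39 were tested and 38 of these had 1 FPKM or more in every library, the exception being Extl1. Ugdh rose in A2ARKO, 0 members fell and 38 did not pass the limma test. That is 2.56% of the members, where 5.08% of all tested genes were called in either direction, 3.31% higher and 1.77% lower (384 and 205 genes). The split over all genes was 178 higher and 170 lower with libraries rescaled to the same sum, and 302 higher and 259 lower after quantile normalization. At an unadjusted p below 0.05 there were 4 members higher and 3 lower, or 17.9% of the members, against 24.7% of all tested genes. The median difference of the members was 0.04, against 0.002 over all tested genes, with 21 members above 0 and 18 below. The groups did not overlap for 9 members, 6 higher and 3 lower in A2ARKO, or 23.1%, against 32.9% of all tested genes (18.0% higher and 14.9% lower). Each of these shares of the members was below its background in the fit described. Without WT replicate 3, 12.8% of the members were called, against 7.35% of all tested genes. Without WT replicate 1, these shares were 5.13% and 7.76%.

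**Figure D1:**
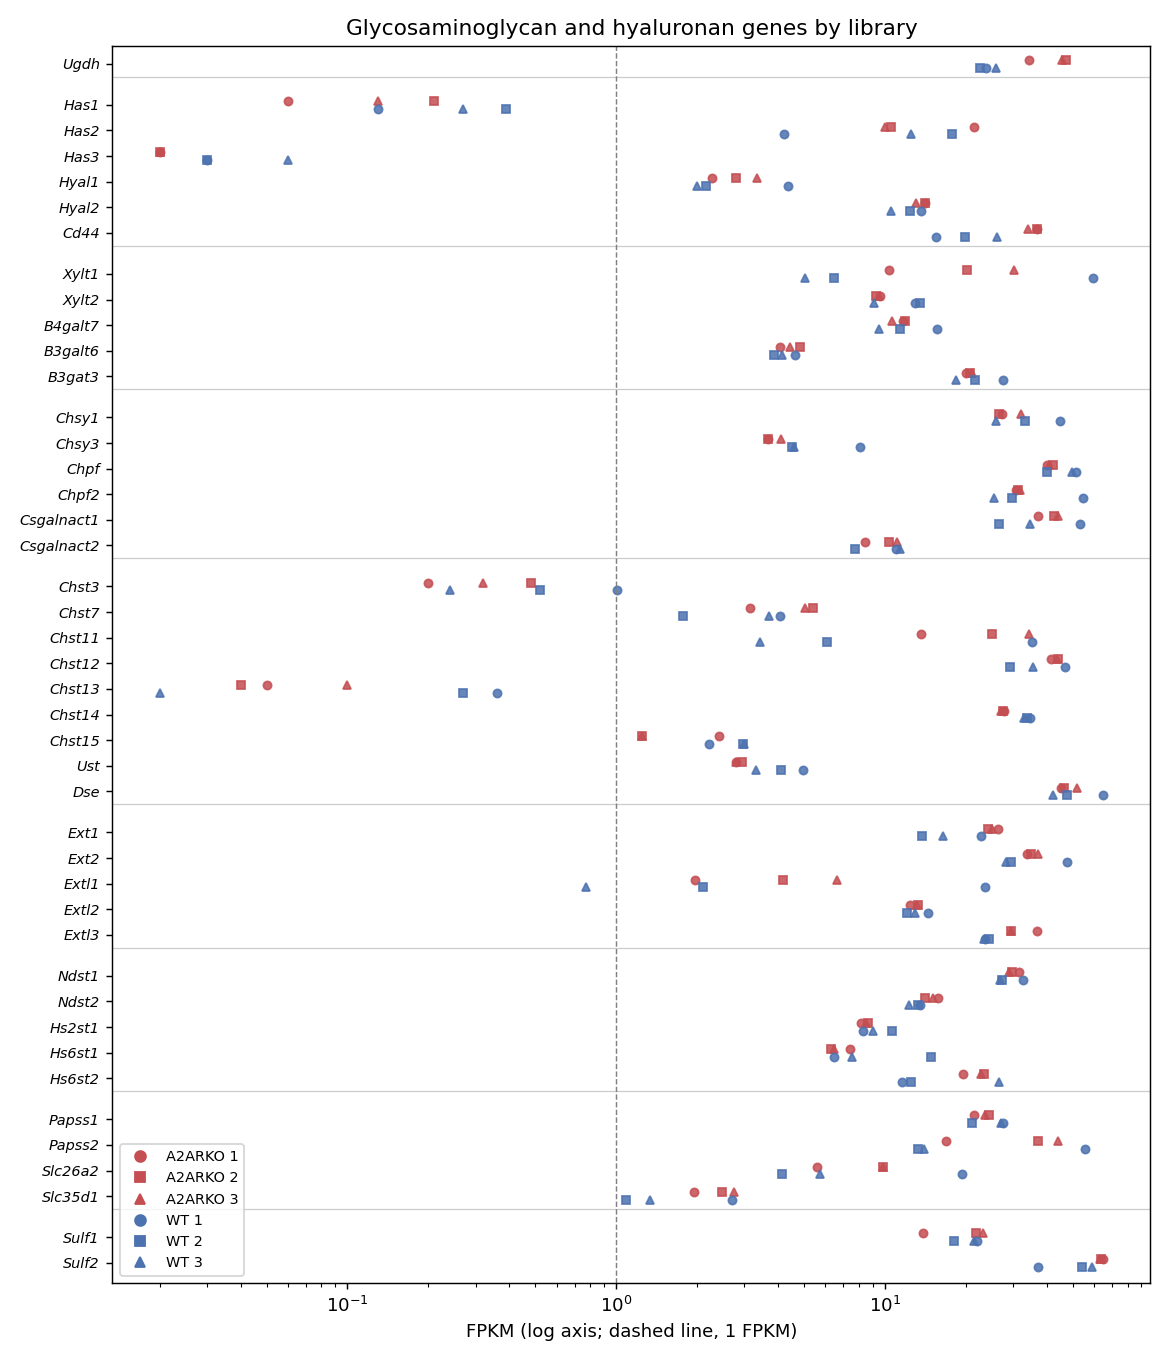
FPKM of each of the 43 members on a log axis, A2ARKO libraries above WT libraries for each gene, with a symbol for each replicate and lines between role groups. Has1, Has3, Chst3 and Chst13 lie below or at about 1 FPKM, and WT replicate 1 lies far right of the other WT libraries for Xylt1, Chst11, Extl1, Papss2 and Slc26a2.

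Ugdh encodes the dehydrogenase that turns UDP-glucose into UDP-glucuronate, the sugar donor shared by hyaluronan, chondroitin and heparan chains. The gene is on the minus strand of mm10 chromosome 5, from 65413221 to 65435949. It shares 158 of its 6752 exon bases with Gm43552 on the same strand. It read 34.4, 47.1 and 45.5 FPKM in A2ARKO libraries, against 23.7, 22.6 and 26.0 FPKM in WT libraries. All 3 A2ARKO libraries were above all 3 WT libraries. The means were 42.3 ± 6.89 FPKM in A2ARKO and 24.1 ± 1.74 FPKM in WT (SD, n = 3 each), a ratio of 1.76, with a log2 difference of 0.78 (SE 0.14, limma adjusted p = 0.0397). WT replicate 1, far from the other WT libraries in cartilage markers, was not so in Ugdh. Within A2ARKO, replicate 1 was the lowest library both in Ugdh and in the sum of the chondrocyte markers. Any link between Ugdh and cartilage marker RNA was not tested. The adjusted p was 0.0541 and 0.0863 without WT replicate 1 or 2 and 0.165 and 0.161 without A2ARKO replicate 2 or 3, and 0.103 with libraries rescaled to the same sum. The log2 difference lay between 0.66 and 0.92 in all of the fits tried.

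The 250 bases before the Ugdh start (RefSeq, GRCm38.p6, the assembly also named mm10, chr5:65435843-65436092, minus strand) are shown because Ugdh is the member that was called. The RefSeq start lies inside the GENCODE gene given above, so 107 of these bases are within that gene. None of the motifs searched is in them, so no base is in capitals, and 69.2% of the bases are G or C, where the median over 32851 promoters was 52.4%.
Ugdh: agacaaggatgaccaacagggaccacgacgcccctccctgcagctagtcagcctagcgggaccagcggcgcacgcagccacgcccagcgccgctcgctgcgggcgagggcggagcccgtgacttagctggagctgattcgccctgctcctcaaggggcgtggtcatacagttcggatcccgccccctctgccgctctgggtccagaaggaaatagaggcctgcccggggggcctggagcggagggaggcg

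Other genes of the pathway make the remaining sugar donors. Of 11 listed genes for nucleotide sugars, PAPS transport and glucose uptake, all tested, Gfpt2 and Uap1 rose and 9 did not pass (18.2% called, against 5.08% of all tested genes, with a median difference of 0.18). This list was chosen with earlier results of these data known, so the larger share cannot be read as an excess. Gfpt2, which encodes an isoform of the amidotransferase that opens the hexosamine pathway, read 10.4, 11.4 and 11.1 FPKM in A2ARKO, against 5.29, 5.38 and 3.76 FPKM in WT (log2 difference 1.06, SE 0.13, limma adjusted p = 0.0158). Uap1, the pyrophosphorylase that makes UDP-N-acetylglucosamine, read 21.2, 24.0 and 22.1 FPKM in A2ARKO, against 16.9, 15.5 and 15.0 FPKM in WT (log2 difference 0.48, SE 0.09, limma adjusted p = 0.0405). For both genes every A2ARKO library lay above every WT library. Gnpnat1 and Pgm3, whose products act between them, and Gfpt1, the other amidotransferase gene, did not pass. Gnpnat1 read 4.61, 5.09 and 4.98 FPKM in A2ARKO, against 7.15, 5.93 and 6.27 FPKM in WT, and Pgm3 and Gfpt1 had log2 differences of -0.04 and -0.07. Their limma adjusted p were 0.0945 for Gnpnat1, 0.895 for Pgm3 and 0.798 for Gfpt1, and the 3 genes were chosen for naming after their values were seen. Ugp2, which makes the substrate of Ugdh, averaged 57.7 ± 10.4 FPKM in A2ARKO and 44.6 ± 3.71 FPKM in WT (SD, n = 3 each) and was not called (limma adjusted p = 0.236). Gfpt2 lost the call without any of the A2ARKO replicates 1, 2 and 3 (adjusted p of 0.064, 0.0903 and 0.0852). Uap1 lost it without any of the A2ARKO libraries or without WT replicate 2 or 3 (adjusted p of 0.0574 to 0.187), and with libraries rescaled to the same sum (0.160), quantile normalization (0.0507) or no filter (0.0677).

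**Figure D2:**
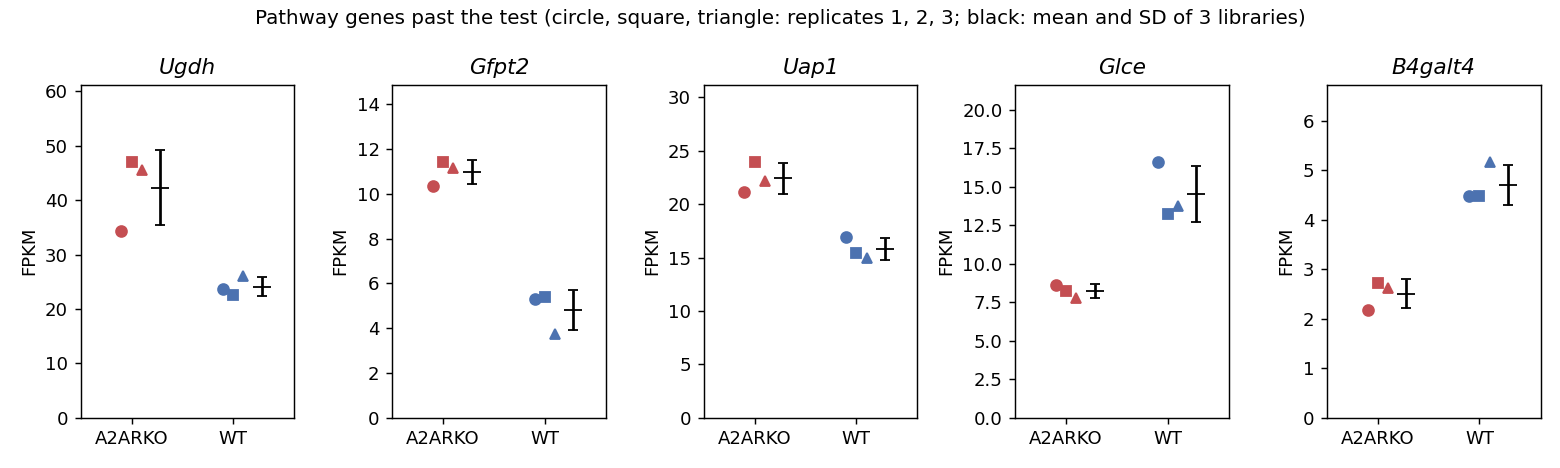
FPKM of the pathway genes past the limma test in each library, with the mean and SD of 3 libraries in black. For Ugdh, Gfpt2 and Uap1 all A2ARKO libraries lie above all WT libraries, and for Glce and B4galt4 all lie below.

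Among the hyaluronan genes, Cd44, the main cell-surface receptor of hyaluronan, had the highest level and the smallest p. It read 36.8, 36.7 and 34.1 FPKM in A2ARKO, against 15.5, 19.9 and 26.0 FPKM in WT. The groups did not overlap, and the WT libraries were more spread than the A2ARKO ones. The means were 35.9 ± 1.52 FPKM in A2ARKO and 20.5 ± 5.30 FPKM in WT (SD, n = 3 each), with a log2 difference of 0.81 (SE 0.18), and limma did not call it (adjusted p = 0.0608). It was called without WT replicate 3 (adjusted p = 0.0224), a fit in which 7.35% of all tested genes were called, and when each library was weighted by its own spread (0.0265), with 9.45% of all called. WT replicate 2, which held the most leukocyte marker RNA, was the middle WT library for Cd44, and any part of leukocyte RNA in its values was not tested.

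Has2 was the only hyaluronan synthase gene above the filter. It read 21.4, 10.6 and 9.98 FPKM in A2ARKO, against 4.22, 17.7 and 12.5 FPKM in WT, with overlap between the groups. Its log2 difference was 0.37 with a 95% interval of -0.91 to 1.65, so a difference of that size in either direction is not outside it. Has1 stayed at 0.06 to 0.21 FPKM in A2ARKO and 0.13 to 0.39 FPKM in WT, and Has3 at 0.02 FPKM in every A2ARKO library and 0.03 to 0.06 FPKM in WT. By annotated exon length these are about 14 to 88 reads a library for Has1 and 7 to 20 for Has3, too few for a comparison. The hyaluronidase genes Hyal1 and Hyal2 averaged 2.81 ± 0.54 and 13.8 ± 0.652 FPKM in A2ARKO and 2.83 ± 1.32 and 12.2 ± 1.56 FPKM in WT (SD, n = 3 each), with log2 differences of 0.03 and 0.17 and no call. Hyal1 shares 1920 exon bases with Naa80 on the same strand, so its value is uncertain. Of 12 other hyaluronan genes listed (link proteins, other receptors and other hyaluronidases), 5 were tested and 0 called, with 1 at an unadjusted p below 0.05. Hapln1, the cartilage link protein and also 1 of the chondrocyte markers, read 10.4, 27.0 and 39.5 FPKM in A2ARKO, against 111, 8.99 and 5.64 FPKM in WT.

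Linkage enzymes start every sulfated chain. Of 5 members, none was called by limma and 0 had an unadjusted p below 0.05 (median difference -0.07). Xylt1, a xylosyltransferase that adds the first sugar to the core protein (mm10 chromosome 7, 117380979 to 117673580, plus strand), had the highest mean and the widest spread. It read 10.3, 20.2 and 30.2 FPKM in A2ARKO, against 59.5, 6.45 and 5.06 FPKM in WT. The highest library was WT replicate 1 and the lowest were the other WT libraries, so the A2ARKO libraries lay between them. The log2 difference was 0.48 with a 95% interval of -1.77 to 2.74. Leaving out WT replicate 1 gave 1.54, and leaving out WT replicate 3 gave -0.12, with no call (limma adjusted p of 0.0896 and 0.956), and the ratio of the A2ARKO mean to the WT mean was 0.854 with all libraries and 3.51 without WT replicate 1. The second xylosyltransferase gene, Xylt2, varied less, at 9.56, 9.30 and 9.52 FPKM in A2ARKO, against 13.0, 13.5 and 9.14 FPKM in WT (log2 difference -0.28, adjusted p = 0.301 by limma). With WT replicate 3 left out it was called lower (adjusted p = 0.0333). The remaining linkage genes, the galactosyltransferase genes B4galt7 and B3galt6 and the glucuronyltransferase gene B3gat3, had log2 differences of -0.07, 0.07 and -0.10.

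Chondroitin chains are polymerized by Chsy1, Chsy3, Chpf and Chpf2 and begun by Csgalnact1 and Csgalnact2. None of the 6 was called by limma, 0 had an unadjusted p below 0.05, and 5 of the 6 differences were below 0 (median -0.16), where 49.6% of all tested genes were below 0. Without WT replicate 1, 3 of the 6 were below 0, since Chpf2 and Csgalnact2 changed sign. Chpf, which encodes a polymerizing factor, had the highest mean, with 40.0, 42.2 and 40.7 FPKM in A2ARKO, against 51.3, 40.0 and 49.7 FPKM in WT. Chsy3, a synthase, had the smallest p, with 3.67, 3.66 and 4.10 FPKM in A2ARKO, against 8.05, 4.52 and 4.60 FPKM in WT, and no overlap between the groups (log2 difference -0.44, SE 0.20, limma adjusted p = 0.244). In 5 of these 6 genes WT replicate 1 was the highest library, so their WT means rest in part on it. Without it, the ratio of the A2ARKO mean to the WT mean was 0.968 for Chsy1, 0.914 for Chpf, 1.13 for Chpf2 and 1.35 for Csgalnact1, against 0.826, 0.872, 0.857 and 1.08 with it. Chpf2 shares 2466 exon bases with Smarcd3 on the opposite strand, and the strand setting is not given, so its value is uncertain.

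Upstream of Chpf the cyclic AMP response element TGACGTCA is present at 2 positions, shown in capitals in the 250 bases before the start (RefSeq, GRCm38.p6, chr1:75479472-75479721, minus strand).
Chpf: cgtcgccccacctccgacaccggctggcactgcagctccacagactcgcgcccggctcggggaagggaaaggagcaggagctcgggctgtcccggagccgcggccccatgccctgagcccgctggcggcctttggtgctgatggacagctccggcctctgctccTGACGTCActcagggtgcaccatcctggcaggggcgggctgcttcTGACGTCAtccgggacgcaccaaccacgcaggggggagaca

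Promoter entries were matched by symbol for 33 of the 43 members, in 41 windows of 250 bases. On both strands, TGACGTCA was in 2 windows, those of Chpf and Has1, or 4.88%, against 1.55% of all 32851 windows. The AP-1 motif TGANTCA was in 1 window, of Csgalnact2, or 2.44%, against 6.75% of all. The SOX motif ACAAAG was in 2 windows, of Chst3 and Hyal1, or 4.88%, against 16.5% of all. No match overlapped another motif searched. These are descriptions of letters in the windows.

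The 9 genes for sulfation and epimerization of chondroitin and dermatan sulfate held the largest differences in both directions, and none was called by limma. Chst14, the dermatan 4-O-sulfotransferase gene, had the smallest p of the 7 tested. It read 27.7, 27.6 and 27.1 FPKM in A2ARKO, against 34.6, 33.8 and 33.0 FPKM in WT, with no overlap (log2 difference -0.29, SE 0.07, limma adjusted p = 0.0768). Ust, which sulfates uronic acid, read 2.80, 2.95 and 2.79 FPKM in A2ARKO, against 4.97, 4.12 and 3.30 FPKM in WT, again with no overlap (log2 difference -0.40, limma adjusted p = 0.135). Chst15, which adds a further sulfate to a sulfated chondroitin unit, read 2.41, 1.25 and 1.25 FPKM in A2ARKO, against 2.22, 2.97 and 2.99 FPKM in WT, and here the groups overlapped (log2 difference -0.52, limma adjusted p = 0.175). These were the 3 members, 7.69% of those tested, with an unadjusted p below 0.05 on the lower side, against 10.4% of all tested genes. Chst15 shares 1206 exon bases with Gm10584 on the opposite strand, and the strand setting is not given, so its value is uncertain. Dse, the epimerase that converts chondroitin to dermatan, had the highest mean of the group, with 45.1, 46.5 and 51.8 FPKM in A2ARKO, against 64.9, 47.6 and 42.3 FPKM in WT.

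Chst11, the main chondroitin 4-O-sulfotransferase gene of cartilage (mm10 chromosome 10, 82985498 to 83195900, plus strand), had the largest log2 difference of all tested members, at 1.19 with a 95% interval of -0.77 to 3.15. It read 13.7, 25.1 and 34.5 FPKM in A2ARKO, against 35.4, 6.10 and 3.44 FPKM in WT. WT replicate 1 was at the level of A2ARKO replicate 3, and WT replicates 2 and 3 were below every A2ARKO library. The ratio of the A2ARKO mean to the WT mean was 1.63 with all libraries and 5.12 without WT replicate 1, and without that library limma called it (log2 difference 2.09, adjusted p = 0.0475). In that fit 7.76% of all tested genes were called, and 2 members, Chst11 and Ext1. Chst11 lies 7.65 Mb from Adora2a on the same chromosome, which also carries Chst3, Dse and Ust at 15.1, 41.1 and 66.8 Mb. The 4-O-sulfotransferase gene Chst12 varied less, with 41.5, 44.0 and 43.9 FPKM in A2ARKO, against 47.0, 29.2 and 35.5 FPKM in WT. Chst13 did not exceed 0.36 FPKM in any library, about 25 reads. The 6-O-sulfotransferase genes were low: Chst3 read 0.20 to 0.48 FPKM in A2ARKO and 0.24 to 1.01 FPKM in WT, and Chst7 read 3.15 to 5.39 FPKM in A2ARKO and 1.77 to 4.07 FPKM in WT.

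Heparan chains are polymerized by Ext1 and Ext2 and started or extended by Extl1, Extl2 and Extl3. None of these 5 was called by limma, 2 were higher at an unadjusted p below 0.05, where 14.3% of all tested genes were, and the median difference was 0.05. Extl3 read 36.6, 29.6 and 29.5 FPKM in A2ARKO, against 23.6, 24.4 and 23.5 FPKM in WT, with no overlap (log2 difference 0.40, SE 0.11, limma adjusted p = 0.0909). Ext1 read 26.3, 24.1 and 24.9 FPKM in A2ARKO, against 22.8, 13.8 and 16.5 FPKM in WT, also with no overlap (log2 difference 0.51, SE 0.18, limma adjusted p = 0.152). WT replicate 1 was the WT library nearest to A2ARKO, and without it limma called Ext1 (log2 difference 0.70, adjusted p = 0.0278). Ext2, the partner of Ext1 in the polymerase and the highest of the group, did not show this, at 33.7, 34.9 and 37.2 FPKM in A2ARKO, against 47.7, 29.3 and 28.2 FPKM in WT (log2 difference 0.05). Extl1 ranged most widely, with 1.96, 4.18 and 6.65 FPKM in A2ARKO, against 23.6, 2.10 and 0.77 FPKM in WT.

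The heparan sulfotransferases place sulfate on the finished backbone. None of the 5 genes was called by limma, 0 had an unadjusted p below 0.05, and the median difference was 0.06. Ndst1, an N-deacetylase and N-sulfotransferase and the highest of them, read 31.6, 29.8 and 29.0 FPKM in A2ARKO, against 32.6, 27.3 and 26.8 FPKM in WT (95% interval of the log2 difference -0.19 to 0.31). Ndst2, its paralog, had the smallest p, with 15.8, 14.1 and 15.0 FPKM in A2ARKO, against 13.5, 13.2 and 12.3 FPKM in WT (log2 difference 0.19, limma adjusted p = 0.218). Of the 6-O-sulfotransferase genes, Hs6st1 read 7.44, 6.29 and 6.45 FPKM in A2ARKO, against 6.46, 14.8 and 7.51 FPKM in WT, and Hs6st2 read 19.5, 23.4 and 22.7 FPKM in A2ARKO, against 11.6, 12.5 and 26.6 FPKM in WT. The high Hs6st1 value was in WT replicate 2, the library with most skeletal muscle and leukocyte marker RNA, and any link between them was not tested. Hs6st2 was called higher without WT replicate 3 (log2 difference 0.81, adjusted p = 0.0237), in which it was highest. Hs2st1, the 2-O-sulfotransferase gene, had a log2 difference of -0.12.

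Sulfate reaches the chains through the importer Slc26a2 and the PAPS synthases Papss1 and Papss2, and Slc35d1 carries nucleotide sugars into the endoplasmic reticulum. None of these 4 was called by limma, and 0 had an unadjusted p below 0.05 (median difference 0.20). Papss2, the synthase gene known for its role in cartilage (mm10 chromosome 19, 32595790 to 32667187, plus strand), read 16.9, 37.0 and 43.9 FPKM in A2ARKO, against 55.5, 13.3 and 14.0 FPKM in WT. Its means were 32.6 ± 14.1 FPKM in A2ARKO and 27.6 ± 24.2 FPKM in WT (SD, n = 3 each). Papss1 stayed at 21.4 to 24.4 FPKM in A2ARKO and 21.1 to 27.6 FPKM in WT. Slc26a2, mutated in human chondrodysplasias, read 5.58, 9.80 and 9.87 FPKM in A2ARKO, against 19.4, 4.13 and 5.73 FPKM in WT. Slc35d1, with the smallest p of the group, read 1.94, 2.48 and 2.74 FPKM in A2ARKO, against 2.69, 1.09 and 1.34 FPKM in WT (log2 difference 0.36, limma adjusted p = 0.393). Leaving out WT replicate 1 turned the ratio of the A2ARKO mean to the WT mean from 0.862 to 1.71 for Slc26a2 and moved it from 1.18 to 2.39 for Papss2, without a call.

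The extracellular sulfatases Sulf1 and Sulf2 remove 6-O-sulfate from finished heparan chains. Sulf2 read 64.8, 63.9 and 62.9 FPKM in A2ARKO, against 37.1, 54.0 and 59.1 FPKM in WT, with no overlap and the highest level of all members in A2ARKO (log2 difference 0.37, limma adjusted p = 0.268). Sulf1 read 13.9, 21.9 and 23.1 FPKM in A2ARKO, against 22.0, 18.0 and 21.4 FPKM in WT. Sulf2 was lowest in WT replicate 1, the opposite of its place for Xylt1, Chst11 and Papss2. Neither gene was called, and at an unadjusted p below 0.05 there were 0.

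**Figure D3:**
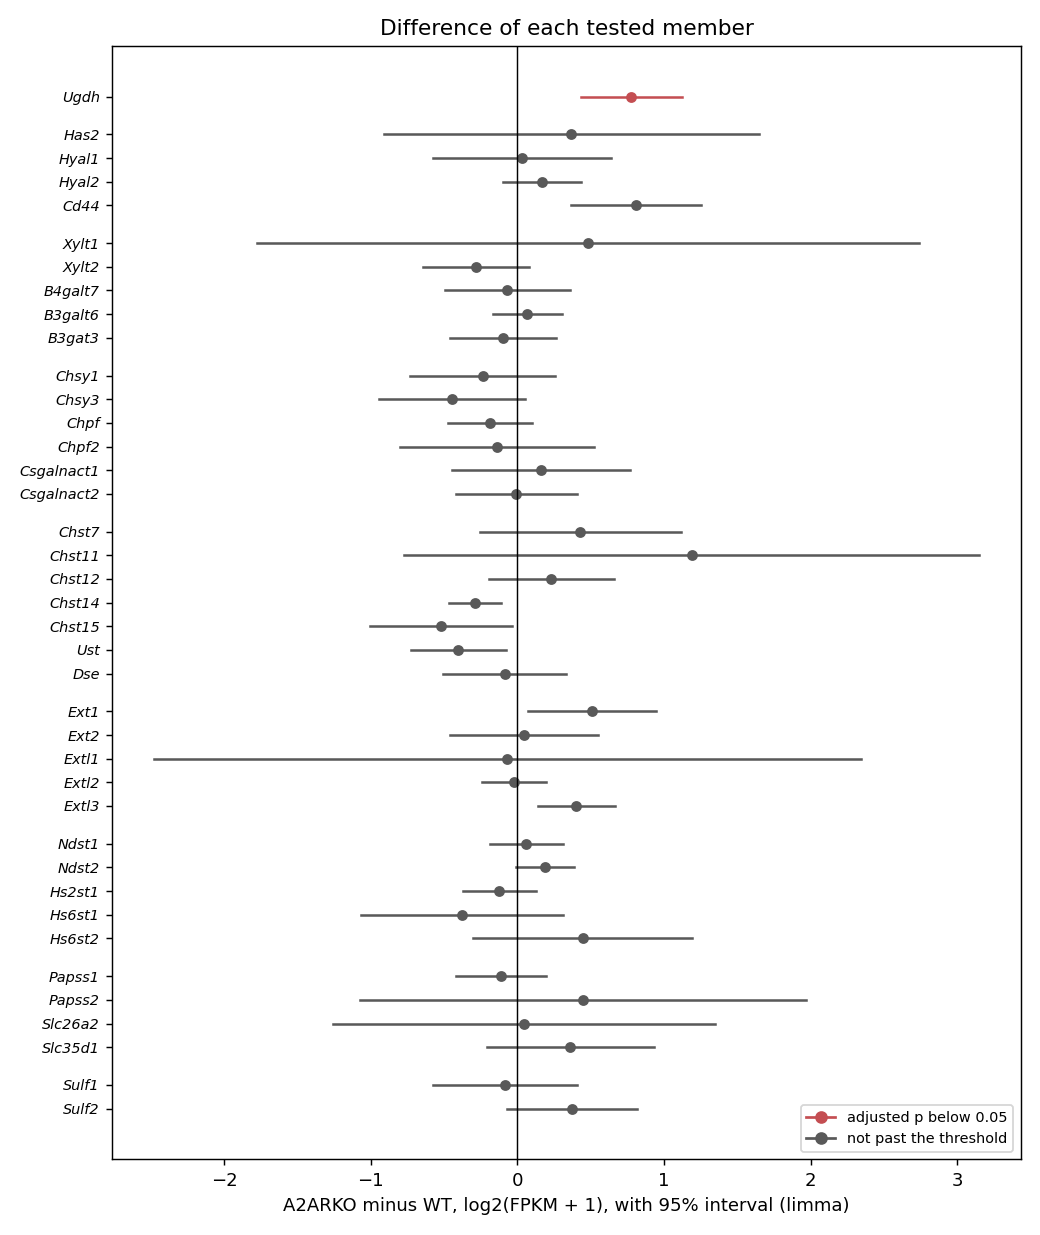
Difference in mean log2(FPKM + 1), A2ARKO less WT, for the 39 tested members in role groups, with 95% intervals from limma. Ugdh alone passed the test, and the intervals of Xylt1, Chst11, Extl1, Papss2, Has2 and Slc26a2 are the widest.

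The WT litters were more spread than the A2ARKO litters. The median SD over the members was 0.10 in A2ARKO and 0.34 in WT on the log2(FPKM + 1) scale, where that of the other pathway genes was 0.12 in A2ARKO and 0.28 in WT, and that of all tested genes 0.10 in A2ARKO and 0.19 in WT. WT replicate 1 was the highest of the 6 libraries in 21 of 39 members, or 53.8%, against 37.5% of the other pathway genes and 23.0% of all tested genes, and the lowest in 4 members, or 10.3%, against 24.6%. In Xylt1, Chst11, Extl1, Papss2 and Slc26a2, WT replicate 1 was at least 3-fold above the mean of WT replicates 2 and 3, by 10.3-fold, 7.41-fold, 16.5-fold, 4.07-fold and 3.94-fold. These are 5 of 39 members, or 12.8%, where 2.49% of all tested genes and 13 of the 13 chondrocyte markers were so. The 3-fold limit and the genes were chosen after the values were seen, and no test was made.

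Some members had the library order of the cartilage markers. From high to low, Xylt1 and Chst11 ran WT replicate 1, A2ARKO replicates 3, 2 and 1, then WT replicates 2 and 3. In all, 5 members, Hyal1, Xylt1, Chpf2, Chst11 and Ext2, had exactly this order, as did 12 of 13 chondrocyte markers and 1.37% of all tested genes. WT replicate 1 was first and A2ARKO replicate 3 second in 10 members, or 25.6%, against 6.42% of all tested genes. The other 5 were Csgalnact1, Dse, Extl1, Papss2 and Slc26a2. The full order was read from Xylt1 itself, so Xylt1 matched it by construction. The full order and the leading pair were taken from these same values, and no test was made. The values of Hyal1 and Chpf2 are uncertain because of shared exon bases. Sox9, the chondrocyte transcription factor gene, read 21.2, 31.6 and 35.5 FPKM in A2ARKO, against 50.7, 17.3 and 15.3 FPKM in WT, a narrower range than that of Acan. Other members did not share the pattern. WT replicate 1 stood at 1.14, 1.15 and 1.20 times the mean of the other WT libraries for Xylt2, Extl2 and Ndst1, and below that mean, at 0.279, 0.579, 0.594 and 0.675 times, for Has2, Hs6st1, Hs6st2 and Cd44.

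**Figure D4:**
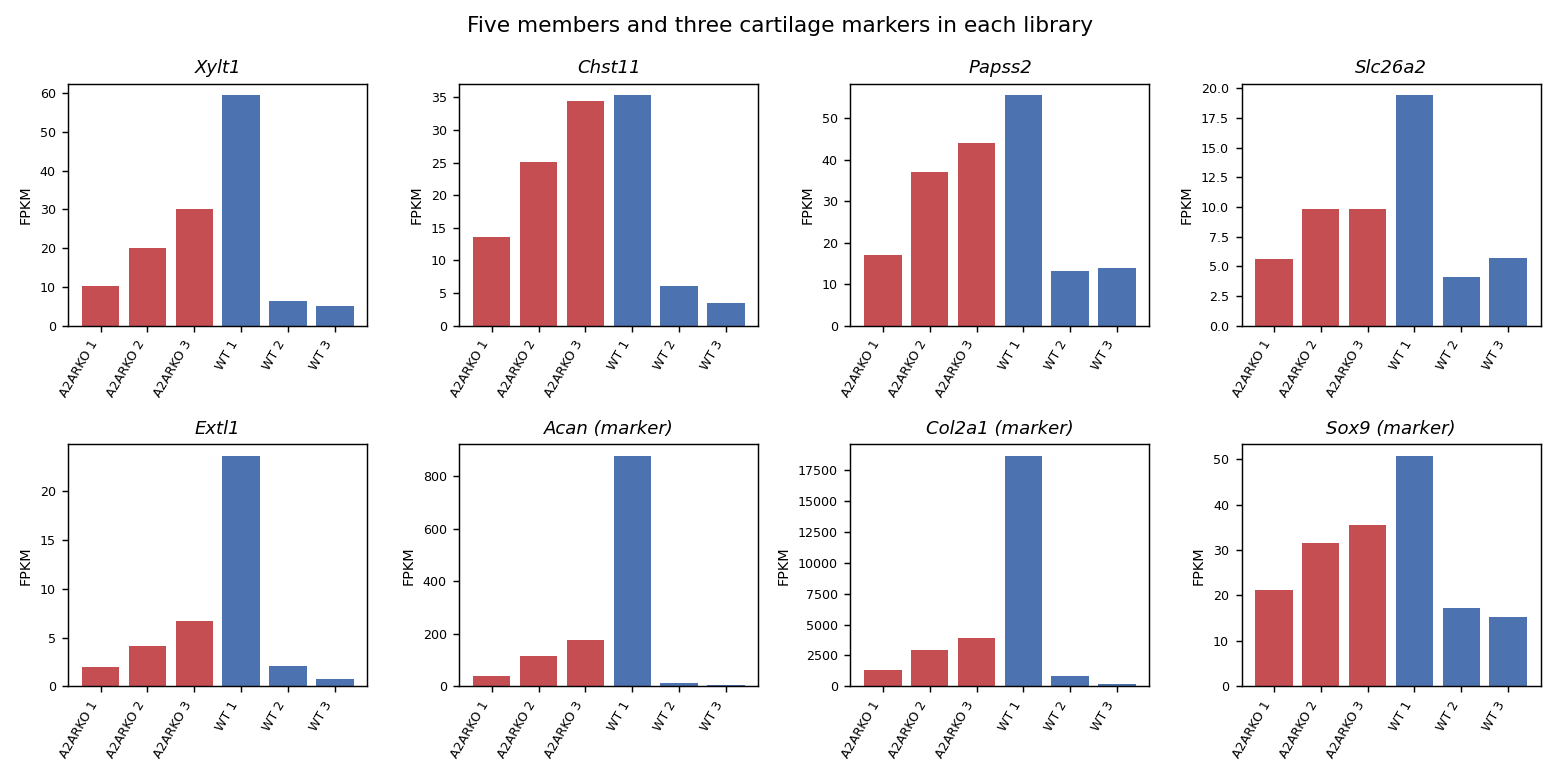
Bars give the FPKM of Xylt1, Chst11, Papss2, Slc26a2 and Extl1 and of the markers Acan, Col2a1 and Sox9 in each library, A2ARKO in red and WT in blue, each on its own linear axis from 0. WT replicate 1 is the highest bar in every panel and A2ARKO replicate 3 is second.

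The promoters of Chst11 and Papss2 (RefSeq, GRCm38.p6, the 250 bases before the start, chr10:82985247-82985496 and chr19:32595465-32595714, both plus strand) are shown as those of members that varied together. For Papss2 this is the first of its 2 listed starts. Neither holds a motif searched, so no base is in capitals, and 70.0% and 67.6% of the bases are G or C.
Chst11: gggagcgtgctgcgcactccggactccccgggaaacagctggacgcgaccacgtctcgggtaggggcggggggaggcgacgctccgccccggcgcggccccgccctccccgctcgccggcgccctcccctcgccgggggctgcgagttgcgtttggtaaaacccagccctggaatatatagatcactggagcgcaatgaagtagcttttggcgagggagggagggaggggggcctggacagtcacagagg
Papss2: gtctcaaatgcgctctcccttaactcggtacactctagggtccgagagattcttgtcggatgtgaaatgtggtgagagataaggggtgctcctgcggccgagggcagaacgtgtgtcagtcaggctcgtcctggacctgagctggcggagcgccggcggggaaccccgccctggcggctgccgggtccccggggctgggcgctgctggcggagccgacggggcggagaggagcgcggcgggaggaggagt

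Several steps are served by a pair of enzymes, and the share of each pair was computed within a library. Xylt1 made up 51.9%, 68.4% and 76.0% of the summed Xylt1 and Xylt2 FPKM in A2ARKO, against 82.1%, 32.3% and 35.6% in WT. Papss2 made up 44.2%, 60.3% and 65.0% of the Papss pair in A2ARKO, against 66.8%, 38.6% and 34.1% in WT, and Chst11 24.7%, 36.3% and 44.0% of its pair with Chst12, against 42.95%, 17.3% and 8.83%. In WT replicates 2 and 3 Xylt2 and Papss1 were the larger part of their pairs, and in WT replicate 1 the smaller. The share of Csgalnact1 in its pair with Csgalnact2 stayed at 79.9% to 81.5% in A2ARKO and 75.2% to 82.9% in WT, and that of Ndst1 in its pair with Ndst2 at 65.8% to 67.9% in A2ARKO and 67.4% to 70.7% in WT. All 7 pairs examined overlapped between the genotypes. These are shares of FPKM, with 1 value a litter, and no test was made.

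**Figure D5:**
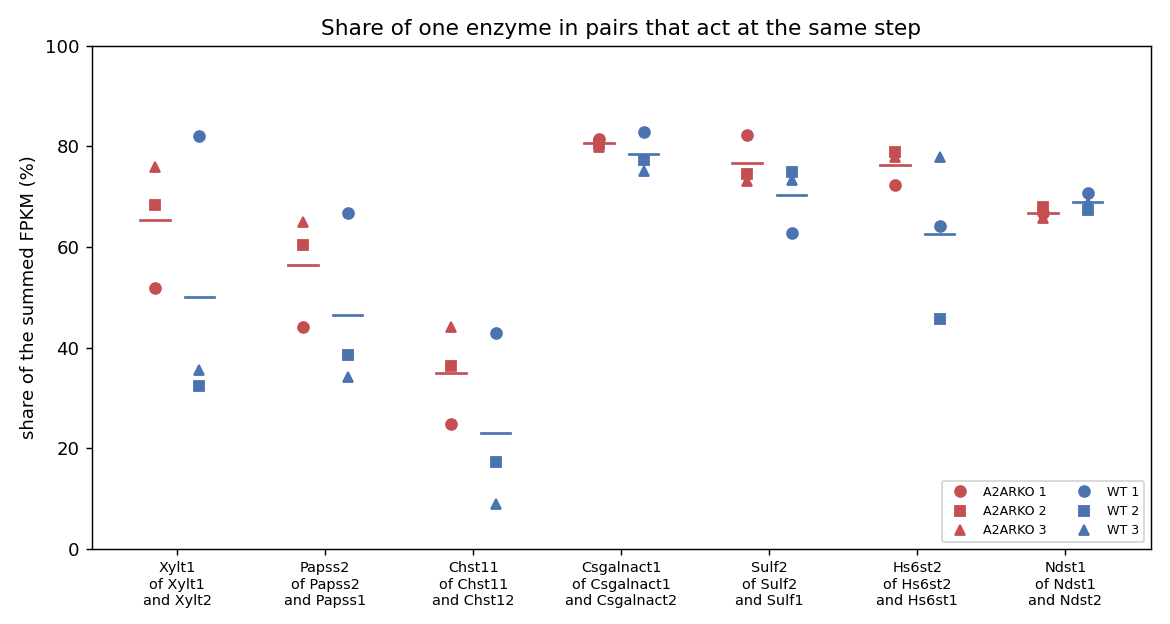
Share of one gene in the summed FPKM of a pair of enzymes for the same step, in percent, A2ARKO left of WT for each pair, with a symbol for each replicate and lines for the mean of 3. The shares of Xylt1, Papss2 and Chst11 spread widely in both genotypes, and those of Csgalnact1 and Ndst1 spread less.

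The remaining steps of the pathway were followed in lists of genes outside the 43. Of all 62 such genes, 40 were tested, 2 rose (Gfpt2 and Uap1), 2 fell (Glce and B4galt4) and 36 did not pass, with a median difference of -0.003. That is 4 called of 40 tested, a larger share than the 5.08% of all tested genes, and no test of the difference was made. These lists were chosen with earlier results of these data known, so the larger share cannot be read as an excess. Glce, which epimerizes glucuronate in heparan sulfate, fell to 8.64, 8.23 and 7.76 FPKM in A2ARKO, against 16.6, 13.3 and 13.8 FPKM in WT (log2 difference -0.75, SE 0.11, limma adjusted p = 0.0213). B4galt4, a galactosyltransferase able to act in keratan sulfate synthesis, fell to 2.18, 2.72 and 2.62 FPKM in A2ARKO, against 4.48, 4.47 and 5.17 FPKM in WT (log2 difference -0.70, SE 0.10, limma adjusted p = 0.0233). For both genes every A2ARKO library was below every WT library. Each lost the call without any of the A2ARKO libraries (adjusted p of 0.0724 to 0.114), and B4galt4 also without WT replicate 2 (0.0532). Only 2 of 12 listed heparan genes passed the filter, Glce and the heparanase gene Hpse, since the 3-O-sulfotransferase genes and others were low. Of 8 keratan sulfate genes 4 were tested, with B4galt1 the highest at 52.5 ± 1.91 FPKM in A2ARKO and 43.4 ± 12.6 FPKM in WT (SD, n = 3 each). At an unadjusted p below 0.05, 2 of the 4 were lower, B4galt4 and Chst2, where 10.4% of all tested genes were. Chst2 read 4.04, 4.04 and 3.92 FPKM in A2ARKO, against 5.36, 8.35 and 7.23 FPKM in WT, with no overlap (limma adjusted p = 0.0622).

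Lysosomal enzymes break the chains down. Of 13 listed genes, all tested, limma called 0 and 0 had an unadjusted p below 0.05, with a median difference of -0.10. Hexa, a hexosaminidase subunit gene and the highest of them, read 106, 122 and 140 FPKM in A2ARKO, against 182, 183 and 101 FPKM in WT. Of 6 further genes for linkage and chondroitin, 5 were tested and 0 called by limma. At an unadjusted p below 0.05 there were 2, or 40.0%, against 24.7% of all tested genes, 1 higher and 1 lower. Pxylp1 read 7.42, 6.85 and 6.00 FPKM in A2ARKO, against 2.64, 3.69 and 4.44 FPKM in WT (limma adjusted p = 0.0557). Dsel read 6.24, 6.89 and 6.60 FPKM in A2ARKO, against 7.42, 9.19 and 12.15 FPKM in WT (limma adjusted p = 0.163). Neither gene overlapped between the genotypes. The highest of the 5 tested was Impad1, a phosphatase of the sulfation pathway, at 26.4 ± 2.69 FPKM in A2ARKO and 28.7 ± 6.28 FPKM in WT (SD, n = 3 each).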

How the data were processed

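RNA of 6 libraries, 3 A2ARKO and 3 WT, was sequenced on an Illumina HiSeq 4000, per the labels' protocols. The authors deposited FPKM values with 2 decimals, and HTSeq and mm10 are named in the submitters' processing notes. No source used here states the aligner, versions, annotation, gene lengths or strand setting, and reads of overlapping genes cannot be told apart. All 6 columns were used, matched by title, with 0 left over. FPKM are scaled to a library's total, so 1 very abundant transcript lowers the others.

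The members and lists were chosen with earlier results of these data known. Differences were fitted over all 11595 tested genes with limma 3.58.1 in R 4.3.3 (intensity trend, two-sided, no replicate block) on log2(FPKM + 1), with Benjamini-Hochberg adjustment over all of them. The fit was also run on simulated data with the same spread in every gene and in both groups. The WT litters here were more spread than the A2ARKO litters, so that run does not give the error rate for these data. An exact permutation test of 3 against 3 libraries cannot go below p = 0.1 and was not used. Members named with values in every library are those called, and the highest and the one with the smallest p in each role group, and of the other lists the called genes, or else the highest. Further genes given with values were added after these were seen, for their spread, non-overlap, unadjusted p or place in the pathway. Depth came from genes of at most 150 bases, where 99.0% or more of values up to 10 reads were whole within 0.1 read, with lengths from GENCODE M21, so read numbers are approximate. No pair of litters was as close as sampling noise (at least 14.7 times its median chi-square). Alternatives were pseudocounts of 0.1 and 0.5, no filter, 5 FPKM, rescaling to the same sum, quantile normalization, library weights, a replicate block and leaving out each library.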

Additional observations from a re-analysis of the deposited data

How the results depend on the processing

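Under 14 alternatives, the number of members called higher, 1 in the fit described, was 2 with library weights (Cd44 and Ugdh), 0 with no filter, with libraries rescaled to the same sum, with quantile normalization and with a replicate block, and 0 to 3 with each library left out in turn. The number called lower, 0, was 0 to 2 with each library left out, the 2 being Ust and Xylt2 without WT replicate 3. Over all tested genes, 384 higher and 205 lower became 665 and 431 with library weights, 178 and 170 after rescaling, 143 and 70 with no filter, 1 and 1 with a replicate block, and 39 to 568 and 11 to 362 with each library left out. Of the other pathway genes, 2 higher and 2 lower became 4 and 3 with library weights, 1 and 2 after rescaling and after quantile normalization, 1 and 1 with no filter, 3 and 1 at 5 FPKM, 0 and 0 with a replicate block, and 0 to 3 in each direction with each library left out. The values gave no sign that replicate numbers pair the litters. Same-numbered A2ARKO and WT libraries had correlations of deviations from their group means of -0.521, -0.325 and -0.387 for numbers 1, 2 and 3. No library correlated best with its own number. With 3 libraries a group that differ widely in cartilage markers, this cannot settle whether same-numbered litters were handled together. The block keeps the log2 difference of Ugdh at 0.78 with an adjusted p of 0.143. Among 538 values of members under alternatives, 8 of Ugdh lost the call, 7 of uncalled members gained it, and 36 values of 16 uncalled members changed sign, so the signs printed for these members hold for the fit described and not across settings. Why the results changed was not tested. With 3 litters a group, the width of the intervals limits what can be seen, and Has1, Has3 and Chst13 are limited by depth. Chst3, with about 67 to 273 reads a library, was left untested by the filter.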
